A study of Homo sapiens with 16 samples.

Results

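The 10 genes described here, KLF2, KLF3, KLF4, KLF5, KLF6, KLF7, KLF9, KLF10, KLF11 and KLF13, encode Kruppel-like factors, and were taken by gene name from 58735 genes measured in poly-A-enriched RNA. The cells were BxPC3 and PANC-1, 2 established lines of human pancreatic ductal adenocarcinoma. Cells given gemcitabine, a nucleoside drug that stalls replication after it is phosphorylated inside the cell, were set against control cells of the same line, giving the 4 groups BxPC3 gemcitabine, BxPC3 control, PANC-1 gemcitabine and PANC-1 control. Each group had 4 libraries, and each line is a single cell line of 1 origin rather than a sample of tumours. The labels gave no dose, no time and no sign that replicates were cultured apart. The p-values below thus rest on the spread among libraries of a group, and part or all of it may be technical.

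Kruppel-like factors bind GC-rich boxes and CACCC elements through zinc fingers at their C-terminal end, and they differ in the N-terminal parts that recruit co-factors. KLF4 and KLF5 are best known in epithelia, where KLF4 is linked to cell cycle exit and differentiation and KLF5 to proliferation. KLF9, KLF10, KLF11 and KLF13 recruit the co-repressor SIN3A, KLF3 binds the co-repressor CTBP, and KLF2, KLF6 and KLF7 belong with KLF4 and KLF5 among members described to activate as well as repress. All 10 genes had reads in every library, and all 10 passed the filter on low values in both lines (FPKM of at least 1 in at least 4 of 8 libraries). KLF9 passed it only through the group where it was higher: the 4 controls and no gemcitabine library in BxPC3, and the 4 gemcitabine libraries and no control in PANC-1.

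The libraries held 22152034 to 37777222 reads in listed genes, and 3 reads were worth 0.0803 to 0.138 FPKM for a 1 kb transcript (FPKM being fragments per kilobase, scaled by library size). The line labels were checked on SMAD4, which BxPC3 is known to have lost: it had 0 reads in the 8 BxPC3 libraries, and averaged 3.68 ± 0.437 FPKM in PANC-1 gemcitabine and 3.84 ± 0.193 FPKM in PANC-1 control (SD, n = 4 each). Of 5 epithelial markers (EPCAM, KRT8, KRT18, KRT19 and CDH1), all 5 averaged at least 1 FPKM in BxPC3 and 4 did so in PANC-1, where CDH1, the epithelial cadherin, averaged 0.551 FPKM with gemcitabine and 0.921 FPKM in control. The 14 markers of leukocytes, endothelium, fibroblasts and acinar cells summed to 27.2 to 30.1 FPKM per library in BxPC3 gemcitabine, 10.6 to 12.3 in BxPC3 control, 3.93 to 5.76 in PANC-1 gemcitabine and 1.79 to 2.27 in PANC-1 control. Within BxPC3, most of the higher sum with gemcitabine came from PRSS1 (14.1 FPKM with gemcitabine and 1.83 in control) and CDH5 (5.76 and 0.603 FPKM). CD14, the largest of the 14 in BxPC3 control, had 7.22 FPKM with gemcitabine and 6.97 FPKM in control there, while AMY2A had no read in any library and CD3E none in PANC-1. The part of these genes in the results below was not tested. PANC-1 gemcitabine replicate 1 stood apart from its group: its median deviation from the other 3 libraries was 0.45 (log2) for the most GC-rich quartile of tested genes and -0.42 for the most GC-poor quartile. The members' changes in PANC-1 are therefore given with and without that library, and for the other genes and the levels it is stated where its omission changed a call or a count.

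Positions are given on GRCh38. KLF2 is on chromosome 19 (16324817 to 16327874, plus strand), KLF3 on chromosome 4 (38664196 to 38701042, plus), KLF5 on chromosome 13 (73054976 to 73077542, plus) and KLF13 on chromosome 15 (31326855 to 31435665, plus). Chromosome 9 holds KLF4 (107484852 to 107490482, minus) and KLF9 (70384597 to 70414624, minus), and chromosome 2 holds KLF7 (207074137 to 207167267, minus) and KLF11 (10042849 to 10054836, plus). KLF6 is on chromosome 10 (3775996 to 3785281, minus). An antisense gene, KLF3-AS1, overlaps KLF3 and averaged 0.147 FPKM in BxPC3 gemcitabine and 1.06 FPKM in BxPC3 control, so reads of the pair cannot be told apart if counting ignored strand.

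Of the 10 members, 8 had RefSeq promoter windows (GRCh38.p14, 250 bases before to 50 after an annotated start), 13 windows in all, with several starts for KLF5, KLF7 and KLF11. KLF3 and KLF10 had no entry. The parts upstream of the RefSeq start of KLF4 and KLF6, which rose in BxPC3, and of KLF13, which fell there, are printed 5′ to 3′ on the strand of the gene, without bases annotated as UTR in GENCODE 29. The KLF6 and KLF13 stretches lie outside the annotated gene, and the KLF4 stretch lies inside it, in the first intron of a transcript that starts further upstream. Capitals mark GC boxes (GGGCGG or, on the other strand, CCGCCC) and the CACCC core (GGGTG on the other strand), the sequence families that Kruppel-like factors themselves bind. The stretches are KLF4 at chr9:107489770-107490019 (minus strand, 250 bases), KLF6 at chr10:3785282-3785459 (minus, 178 bases) and KLF13 at chr15:31326585-31326834 (plus, 250 bases).
KLF4: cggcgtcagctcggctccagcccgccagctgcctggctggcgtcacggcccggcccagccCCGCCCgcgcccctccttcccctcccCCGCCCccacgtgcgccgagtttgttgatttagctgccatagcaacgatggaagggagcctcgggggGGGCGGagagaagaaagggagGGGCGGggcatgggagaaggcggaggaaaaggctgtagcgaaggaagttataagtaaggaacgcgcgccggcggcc
KLF6: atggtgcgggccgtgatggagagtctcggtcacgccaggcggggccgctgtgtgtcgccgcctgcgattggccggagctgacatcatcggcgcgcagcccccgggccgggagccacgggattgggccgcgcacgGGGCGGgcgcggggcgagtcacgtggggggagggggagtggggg
KLF13: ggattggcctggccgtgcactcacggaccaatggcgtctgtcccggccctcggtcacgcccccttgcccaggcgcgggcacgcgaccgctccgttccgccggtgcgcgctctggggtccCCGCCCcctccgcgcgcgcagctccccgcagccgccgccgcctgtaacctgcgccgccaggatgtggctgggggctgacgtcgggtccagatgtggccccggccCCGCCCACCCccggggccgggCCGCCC

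The KLF4 stretch holds 4 GC boxes and no CACCC core, the KLF6 stretch 1 GC box and no CACCC core, and the KLF13 stretch 3 GC boxes and 1 CACCC core, which overlaps a GC box. Over the whole windows, 8 of 13 held GGGCGG on either strand, beside 45.0% of all 35116 windows in the table, and 7 of 13 held CACCC, beside 59.9%. The 8 windows with GGGCGG had 69.0 to 80.7% GC, beside a median of 58.7% over all windows. No allowance was made for GC content, and windows of the same gene were counted separately. The E-box CACGTG occurred in 4 of 13 (KLF4, KLF6 and 1 window each of KLF7 and KLF11), beside 7.26% of all windows, and the cyclic AMP response element TGACGTCA in 1 window of KLF11, beside 1.85%. Both directions of change in BxPC3 thus occurred among members with GC boxes: KLF2 (6 boxes in its window) rose, and KLF11 (2 and 7 in its windows) fell. Gene-level FPKM does not say which start was used.

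The untreated lines held the members in different proportions. KLF5 led in BxPC3 with 165 ± 8.21 FPKM, rank 9 among 1553 genes annotated with a transcription factor family, and made up 62.9% of the summed FPKM of the 10 members. KLF10, induced early by TGF-beta, followed at 33.5 ± 0.928 FPKM, then KLF3 at 21.2 ± 0.747 and KLF13 at 18.9 ± 1.59 FPKM (SD, n = 4 each). The libraries of KLF3 and KLF13 overlapped, whereas KLF5 stood 4.93 times above its nearest neighbour in the order. KLF4 averaged 13.6 FPKM and KLF6 3.94 FPKM, and KLF11, KLF2, KLF9 and KLF7 lay between 1.10 and 2.21 FPKM, with KLF2 overlapping KLF9 and KLF9 overlapping KLF7.

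In untreated PANC-1, KLF6 led with 37.5 ± 1.16 FPKM (rank 39 of 1553) and made up 36.6% of the members' sum. KLF10 at 22.2 ± 0.412 FPKM, KLF13 at 13.1 ± 0.734 and KLF11 at 10.3 ± 0.228 followed, and KLF3 at 10.1 FPKM overlapped KLF11. KLF4 averaged 3.33 FPKM, KLF2 2.13, KLF5 1.65, KLF7 1.51 and KLF9 0.760 FPKM, with only KLF5 and KLF7 overlapping among these 5 neighbours in the order. The lines lie in separate tables that may have been normalized apart, so their levels are set side by side without a test. On the deposited scale, KLF5 was 100.1 times higher in BxPC3 control than in PANC-1 control, KLF4 4.07 times and KLF3 2.10 times, while KLF6 was at 0.105 and KLF11 at 0.215 of the PANC-1 level.

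**Figure D1:**
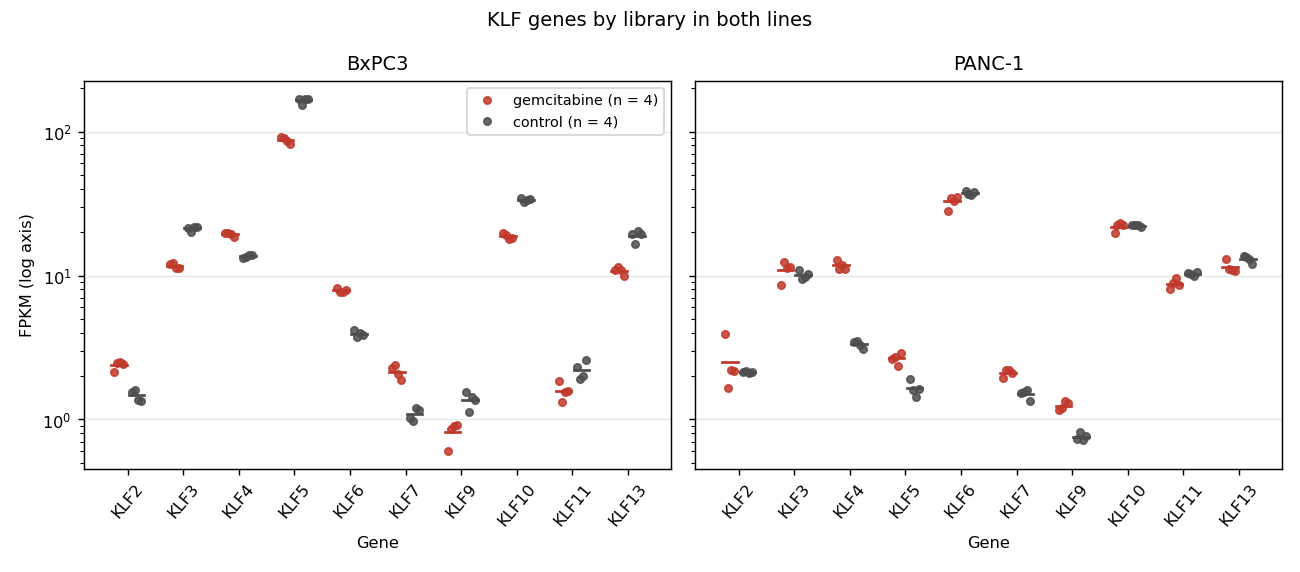
FPKM (log axis) of each member in every library of BxPC3 and PANC-1, with gemcitabine in red left of control in grey; points are libraries and short lines the means of 4. KLF5 is the highest member in BxPC3 in both groups, and KLF6 is the highest in PANC-1.

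The BxPC3 comparison asked how gemcitabine changed these genes in a line where KLF5 dominates. KLF2, KLF4, KLF6 and KLF7 rose, and KLF3, KLF5, KLF9, KLF10, KLF11 and KLF13 fell. All 10 members passed an adjusted p of 0.05 (limma on log2(FPKM + 1), Benjamini-Hochberg over 12215 genes tested), in a comparison where 73.4% of all tested genes did so. The 4 higher members stood beside 37.3% of all genes called higher and the 6 lower beside 36.1% called lower. The gemcitabine and control libraries did not overlap for any of the 10, as for 67.5% of all genes tested. The median log2 change was -0.35 over the members and 0.00 over all genes tested, and the median absolute change was 0.67 and 0.30. In bulk RNA, fewer cells that express a gene cannot be told apart from less RNA per cell.

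KLF6, a widely expressed factor described as a growth suppressor, had 8.20, 7.64, 7.74 and 7.90 FPKM in the 4 BxPC3 libraries with gemcitabine, against 4.20, 3.72, 3.98 and 3.87 FPKM in the controls. Its mean was 1.99 times the control mean (log2 change 0.84 ± 0.04 SE, limma adjusted p = 6.12e-08). Every gemcitabine library lay above every control. KLF7, a factor known from neuronal and fat tissue, had 2.27, 2.38, 2.06 and 1.88 FPKM with gemcitabine, against 1.03, 0.978, 1.21 and 1.17 FPKM in control, a 1.96-fold rise (log2 0.59 ± 0.06 SE, adjusted p = 1.45e-05). The lowest gemcitabine library exceeded the highest control for this gene too.

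KLF4, which restrains the cell cycle in many epithelia, stood at 19.6, 19.9, 19.3 and 18.4 FPKM in BxPC3 gemcitabine libraries, against 13.2, 13.4, 13.8 and 13.8 FPKM in controls. The rise was 1.42-fold (log2 0.48 ± 0.04 SE, limma adjusted p = 1.09e-06). It moved KLF4 to the second place among the members, where its libraries overlapped those of KLF10. KLF2, best known from endothelium as a flow-responsive gene, had 2.15, 2.48, 2.50 and 2.44 FPKM with gemcitabine, against 1.56, 1.61, 1.37 and 1.35 FPKM in control (1.63-fold, log2 0.46 ± 0.06 SE, adjusted p = 3.68e-05). This rise rested on few reads, 142 to 176 per gemcitabine library and 88 to 113 per control.

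Among the members that fell, KLF5 had the largest absolute difference. Its 4 gemcitabine libraries in BxPC3 had 91.6, 90.7, 86.2 and 81.5 FPKM, against 169, 153, 169 and 169 FPKM in the controls, a mean of 0.531 times the control mean (log2 -0.91 ± 0.05 SE, limma adjusted p = 1.66e-07). KLF5 still ranked 17 of 1553 transcription factor genes with gemcitabine. Its share of the members' summed FPKM was 53.7 ± 0.533% with gemcitabine and 62.9 ± 0.298% in control, and the sum itself averaged 163 ± 7.13 FPKM with gemcitabine and 262 ± 11.9 FPKM in control (SD, n = 4 each).

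KLF10, KLF13, KLF11 and KLF9, each known to recruit SIN3A, were called lower in BxPC3, beside 36.1% of all genes. KLF10 (chromosome 8, 102648779 to 102655902, minus strand) had 19.9, 19.0, 17.8 and 18.1 FPKM with gemcitabine, against 34.5, 32.3, 33.4 and 33.7 FPKM in control (0.559 times the control mean, log2 -0.81 ± 0.04 SE, limma adjusted p = 7.23e-08). KLF13, a factor known from lymphocytes as a regulator of the chemokine CCL5, had 11.0, 11.4, 10.9 and 9.90 FPKM, against 19.4, 16.6, 20.2 and 19.4 FPKM in control (0.572 times, log2 -0.75 ± 0.06 SE, adjusted p = 2.70e-06). Both genes kept the 4 gemcitabine libraries below the 4 controls. KLF11, which like KLF10 is induced by TGF-beta, had 1.86, 1.31, 1.54 and 1.57 FPKM with gemcitabine, against 2.32, 1.92, 2.02 and 2.58 FPKM in control (0.711 times, log2 -0.32 ± 0.08 SE, adjusted p = 0.00505). KLF9, a target of glucocorticoid and thyroid hormone receptors, had 0.603, 0.856, 0.901 and 0.914 FPKM, against 1.54, 1.12, 1.42 and 1.36 FPKM in control (0.602 times, log2 -0.38 ± 0.08 SE, adjusted p = 0.00119). As its filter was met through the controls alone, a difference of KLF9 in this direction follows from its inclusion. The CTBP-binding repressor KLF3 fell as well, with 12.0, 12.2, 11.3 and 11.2 FPKM with gemcitabine, against 21.4, 20.1, 21.7 and 21.7 FPKM in control (0.550 times, log2 -0.81 ± 0.04 SE, adjusted p = 6.20e-08).

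The PANC-1 comparison asked the same question in a line with little KLF5. KLF4, KLF5, KLF7 and KLF9 rose and KLF11 fell, while KLF2, KLF3, KLF6, KLF10 and KLF13 did not pass the test. The 5 called members stood in a comparison with 44.8% of 12508 tested genes called, the 4 higher beside 20.7% and the 1 lower beside 24.0%. For 6 members the groups did not overlap, as for 45.8% of all genes tested. The median log2 change was 0.11 over the members and -0.02 over all genes, and the median absolute change was 0.20 and 0.22. Without gemcitabine replicate 1, 8 members were called, in a comparison where 69.8% of genes were, and the groups of the same 8 did not overlap, as for 69.5%. With each library's trend on GC content removed, 8 were called as well, but KLF2 took the place of KLF3. That fit called 3698 of 12508 genes higher and 4545 lower.

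KLF4 showed the largest change of any member in either line. The PANC-1 gemcitabine libraries had 12.9, 11.1, 11.9 and 11.1 FPKM, against 3.48, 3.49, 3.28 and 3.08 FPKM in the controls. The rise was 3.53-fold (log2 1.56 ± 0.07 SE, limma adjusted p = 4.26e-07), a size at the 98.9 percentile of absolute changes in this line. Without gemcitabine replicate 1 it was 3.41-fold (log2 1.51 ± 0.05 SE, adjusted p = 1.03e-09). Between the groups lay a gap from 3.49 to 11.1 FPKM that no library entered.

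KLF5 rose in PANC-1, where its level was low, with 2.65, 2.72, 2.37 and 2.88 FPKM with gemcitabine, against 1.92, 1.60, 1.44 and 1.63 FPKM in control (1.61-fold, log2 0.47 ± 0.07 SE, limma adjusted p = 0.000803). KLF7 had 1.95, 2.19, 2.21 and 2.12 FPKM, against 1.53, 1.55, 1.60 and 1.35 FPKM in control (1.41-fold, log2 0.31 ± 0.06 SE, adjusted p = 0.00200). Both rises had groups that did not overlap, and both kept a like size without gemcitabine replicate 1 (log2 0.47 for KLF5 and 0.34 for KLF7). KLF9 had 1.16, 1.20, 1.33 and 1.30 FPKM with gemcitabine, against 0.736, 0.812, 0.723 and 0.768 FPKM in control (1.64-fold, log2 0.35 ± 0.05 SE, adjusted p = 0.000622). It entered the test through the gemcitabine libraries alone, so here too a difference in this direction follows from its inclusion. Without gemcitabine replicate 1 its log2 change was 0.37 (adjusted p = 0.000117).

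KLF11 had 8.04, 8.81, 9.60 and 8.63 FPKM in PANC-1 gemcitabine libraries, against 10.4, 10.2, 9.99 and 10.5 FPKM in controls (0.853 times the control mean, log2 -0.21 ± 0.06 SE, limma adjusted p = 0.0229). The groups did not overlap, but the call was lost when control replicate 1, 2 or 4 or gemcitabine replicate 2 or 4 was left out (adjusted p = 0.0642, 0.0541, 0.0638, 0.0521 and 0.0589). Without gemcitabine replicate 1 it was called (log2 -0.17 ± 0.04 SE, adjusted p = 0.00371). KLF6, the highest member in this line, had 28.2, 34.8, 32.8 and 35.0 FPKM with gemcitabine, against 38.8, 37.0, 36.1 and 38.0 FPKM in control, and missed the threshold (log2 -0.20 ± 0.08 SE, adjusted p = 0.0616) although the groups did not overlap. Gemcitabine replicate 1 was the lowest of its group, and without it KLF6 was called lower at a smaller change (log2 -0.13 ± 0.04 SE, adjusted p = 0.00862).

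For the 4 remaining members, PANC-1 gemcitabine replicate 1 deviated from the mean of its group's other libraries by 0.72 (KLF2), 0.23 (KLF13), -0.19 (KLF10) and -0.40 (KLF3) in log2. KLF2, whose longest transcript has 65.2% GC, had 3.95 FPKM in that library and 1.66, 2.21 and 2.17 FPKM in the other gemcitabine libraries, against 2.12, 2.18, 2.11 and 2.13 FPKM in control. Its log2 change was 0.12 ± 0.16 SE with the library (limma adjusted p = 0.597) and -0.06 ± 0.07 SE without it (adjusted p = 0.440), and with each library's GC trend removed it was called higher (log2 0.20, adjusted p = 0.0312), so no direction can be given. KLF3, the most GC-poor member at 41.5%, went the other way, with 8.59 FPKM in replicate 1 and 12.4, 11.2 and 11.4 FPKM in the others, against 10.9, 9.47, 9.78 and 10.2 FPKM in control. Without that library KLF3 was called higher (log2 0.19 ± 0.05 SE, adjusted p = 0.00634; with it 0.09 ± 0.10 SE, adjusted p = 0.503). With the GC trend removed it was not called (log2 0.06, adjusted p = 0.240). KLF13, at 57.6% GC, had 12.9 FPKM in replicate 1 and 11.0, 10.9 and 10.8 FPKM in the others, against 13.7, 13.5, 13.1 and 12.0 FPKM in control. It was called lower without the library (log2 -0.24 ± 0.04 SE, adjusted p = 0.000676) and not with it (log2 -0.18 ± 0.07 SE, adjusted p = 0.0746). KLF10, with 19.7, 22.5, 23.0 and 22.4 FPKM with gemcitabine against 22.3, 22.3, 22.5 and 21.6 FPKM in control, passed in neither case, and its 95% interval with all libraries was -0.16 to 0.12 (log2).

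**Figure D2:**
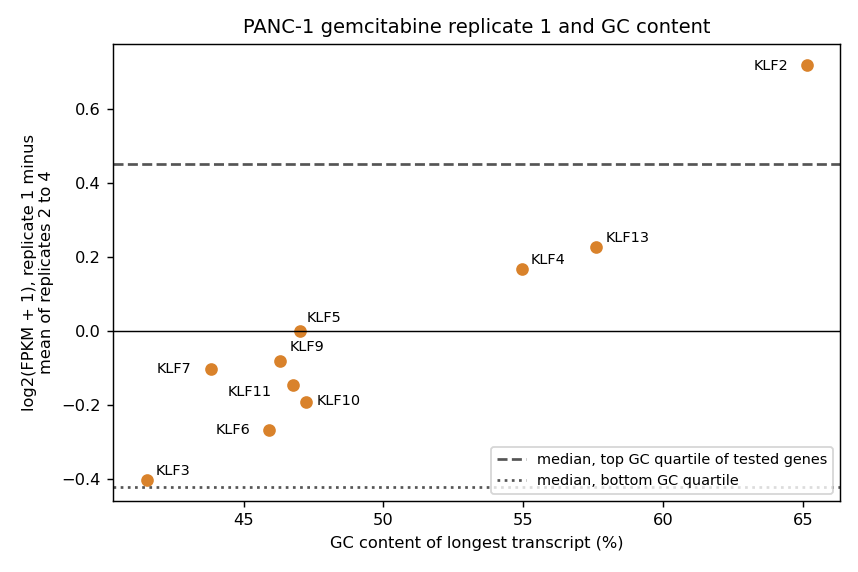
Deviation of PANC-1 gemcitabine replicate 1 from the mean of replicates 2 to 4 (log2(FPKM + 1), y axis) against the GC content of each member's longest transcript (percent, x axis); dashed and dotted lines are the medians over the top and bottom GC quartiles of tested genes. KLF2 lies highest at 0.72 and KLF3 lowest at -0.40.

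The lines were compared by testing whether the change with gemcitabine differed between them (interaction of line and treatment over 16 libraries, limma). The change in BxPC3 was above that in PANC-1 for KLF6 and KLF7 and below it for KLF3, KLF4, KLF5, KLF9, KLF10 and KLF13. These 8 of 10 members stood in a comparison with 51.8% of 14134 genes called, the 2 above beside 26.6% and the 6 below beside 25.2%. KLF5 differed most, by -1.37 ± 0.09 SE in log2 (adjusted p = 3.05e-09), since it fell in BxPC3 and rose in PANC-1. KLF4 rose in both lines, and its rise in BxPC3 was smaller by 1.08 ± 0.07 SE in log2 (difference -1.08, adjusted p = 4.90e-09). For KLF6 the difference was 1.04 ± 0.09 SE (adjusted p = 5.29e-08). Without PANC-1 gemcitabine replicate 1, 9 members were called, beside 65.0% of all genes, the addition being KLF2.

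KLF3, KLF10 and KLF13, lower with gemcitabine in BxPC3, differed between the lines by -0.90, -0.79 and -0.57 in log2 (limma adjusted p = 6.83e-06, 2.12e-07 and 0.000175). KLF9 differed by -0.73 (adjusted p = 4.82e-06), a direction that follows from how it met the filter in each line, so that 7 of the 8 calls stand apart from that limit. KLF7 differed by 0.27 (adjusted p = 0.0109). KLF11 did not pass, with a difference of -0.11 and a 95% interval of -0.33 to 0.11 (adjusted p = 0.396). Its mean FPKM with gemcitabine was 0.711 times that of control in BxPC3 and 0.853 times in PANC-1. The 1 FPKM added before the log shrinks changes more at low levels. Differences between lines at low or unlike levels, as for KLF7, KLF9 and KLF11, thus depend in part on it. The difference of KLF2 was 0.34, with an interval of -0.04 to 0.72 (adjusted p = 0.129), and without PANC-1 gemcitabine replicate 1 it was 0.52 ± 0.09 SE and passed (adjusted p = 8.49e-05).

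Among 10670 genes tested in both lines, 12.7% were called higher in both and 12.8% lower in both. KLF4 and KLF7 were among the genes called higher in both lines, and KLF11 was called lower in both. KLF5 and KLF9 were lower in BxPC3 and higher in PANC-1, a pattern of 4.12% of the genes, and no member had the opposite pattern, which 4.35% had. For KLF9 this pattern follows from the groups through which it met the filter, which leaves KLF5. Without PANC-1 gemcitabine replicate 1, KLF3 joined KLF5 and KLF9, beside 7.03% of genes, KLF6 was called higher in BxPC3 and lower in PANC-1, beside 8.5%, and KLF13 was called lower in both, beside 18.7%.

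**Figure D3:**
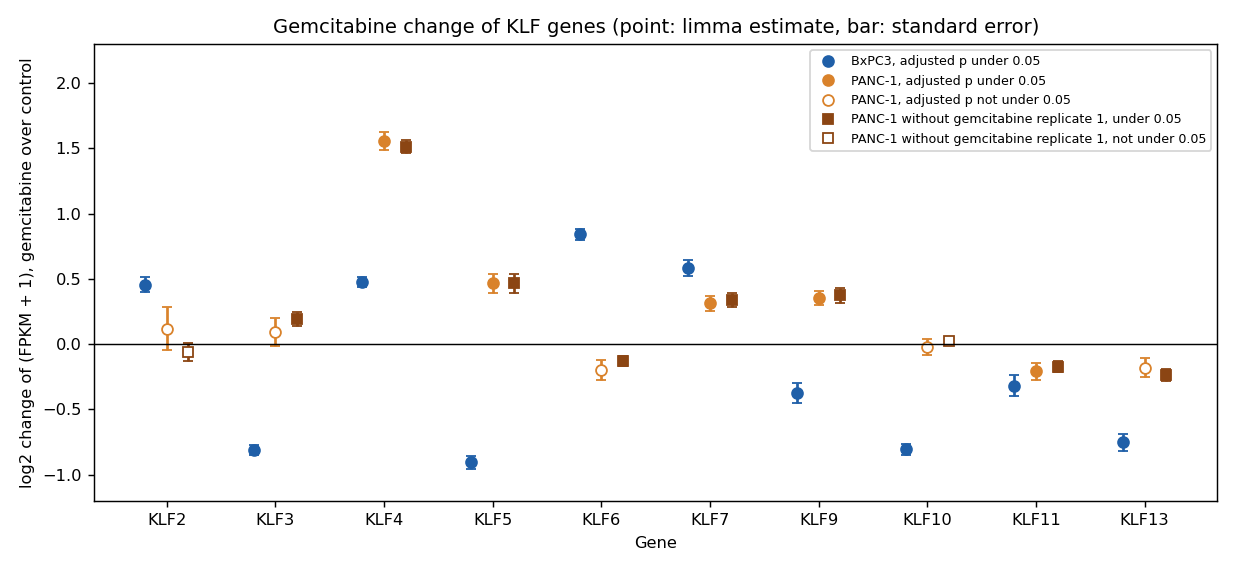
Log2 change of FPKM + 1, gemcitabine over control, for each member in BxPC3 (blue), PANC-1 (orange) and PANC-1 without gemcitabine replicate 1 (brown squares); points are limma estimates, bars are standard errors and open symbols missed an adjusted p of 0.05. KLF4 in PANC-1 is the highest point at 1.56, and KLF5 lies at -0.91 in BxPC3 and 0.47 in PANC-1.

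With gemcitabine the levels of 9 of 10 members lay closer to each other in the lines, in part with the order of the lines reversed. The control libraries of BxPC3 and PANC-1 did not overlap for any of the 10 members, as for 85.3% of 14134 genes. Under gemcitabine the libraries of the lines stood apart for 5 members (KLF4, KLF5, KLF6, KLF9 and KLF11), beside 76.2% of all genes. They overlapped for KLF2, KLF3, KLF7, KLF10 and KLF13. For KLF9 this separation, that in control and the direction of change follow from the groups through which it met the filter. KLF10 overlapped only through PANC-1 gemcitabine replicate 1 (19.7 FPKM, against a BxPC3 maximum of 19.9 FPKM), and without that library 6 members stood apart, beside 87.7% of all genes. The gap between the lines, taken as the absolute difference of log2(mean FPKM + 1), was narrower with gemcitabine than in control for 9 of 10 members, beside 56.0% of all genes, and without that library again for 9 members, beside 53.0%. For KLF5 it was 4.60 with gemcitabine and 5.97 in control, for KLF6 1.93 and 2.96, for KLF4 0.67 and 1.75, and for KLF13 0.07 and 0.50. With all libraries, the line with the higher mean changed for KLF7, KLF9, KLF10 and KLF13. BxPC3 over PANC-1 was 1.01 with gemcitabine and 0.728 in control for KLF7, and 0.656 and 1.79 for KLF9. It was 0.855 and 1.51 for KLF10, and 0.947 and 1.45 for KLF13. Without PANC-1 gemcitabine replicate 1, KLF7 averaged 2.17 FPKM in PANC-1 gemcitabine, against 2.15 in BxPC3 gemcitabine, and KLF3 11.68 in both. KLF2 then averaged 2.01 FPKM in PANC-1 gemcitabine, against 2.39 in BxPC3 gemcitabine. In control it had 2.13 FPKM in PANC-1 and 1.47 in BxPC3, so without that library the order changed for KLF2 too. KLF11 was the member whose gap was not narrower, with 1.93 with gemcitabine and 1.81 in control. These gaps were not tested, since the lines come from separate tables, and they restate the differences of change given above on another scale.

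**Figure D4:**
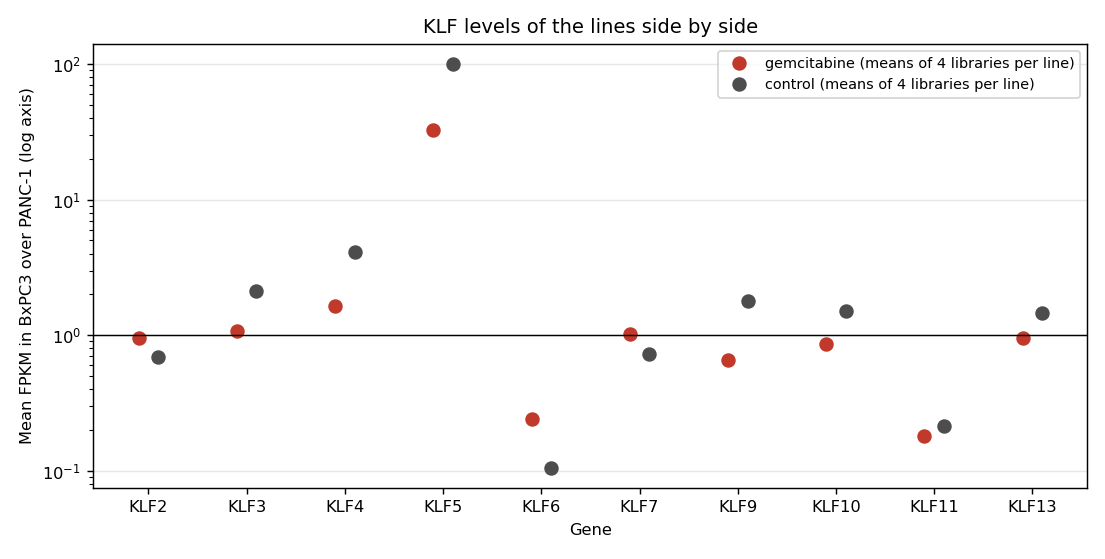
Mean FPKM in BxPC3 over mean FPKM in PANC-1 (log axis) for each member, gemcitabine in red left of control in grey; the line marks a ratio of 1. KLF5 lies at 33.0 with gemcitabine and 100.1 in control, KLF6 at 0.241 and 0.105.

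The nearest protein-coding gene to each member called in both lines was found over all 16 libraries, among 9764 genes, as the smallest Euclidean distance of log2(FPKM + 1) centred on each line's control mean. CAPN2 was nearest to KLF4 (distance 0.26, log2 change 0.53 in BxPC3 and 1.53 in PANC-1), RGL1 to KLF5 (0.32, with -1.002 and 0.49) and ELOA to KLF7 (0.24, with 0.59 and 0.39). TMC5 was nearest to KLF9 (0.32, with -0.41 and 0.43) and C6orf89 to KLF11 (0.27, with -0.33 and -0.23).

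Of 7 other KLF genes listed for comparison, 2 passed the filter in each line. KLF16 averaged 20.4 ± 1.49 FPKM in BxPC3 gemcitabine and 16.7 ± 0.924 FPKM in BxPC3 control and rose 1.22-fold (log2 0.28, limma adjusted p = 0.00134). It did not pass in PANC-1 (19.1 ± 5.11 FPKM with gemcitabine and 20.2 FPKM in control, adjusted p = 0.612), where gemcitabine replicate 1 was at 26.7 FPKM. Without that library KLF16 was called lower in PANC-1 (log2 -0.27 ± 0.06 SE, adjusted p = 0.00132). Its change then also differed between the lines (0.55 ± 0.08 SE in log2, adjusted p = 4.26e-05). With all libraries that difference was not called (0.38, adjusted p = 0.0727). KLF16, which also binds SIN3A, was thus called higher in BxPC3, where KLF9, KLF10, KLF11 and KLF13 were called lower. KLF15, another glucocorticoid-induced member, fell in BxPC3 to 0.335 FPKM with gemcitabine, against 1.30 FPKM in control (adjusted p = 9.12e-06), and KLF12, a CTBP-binding repressor like KLF3, fell in PANC-1 to 0.882 FPKM, against 1.67 FPKM in control (adjusted p = 0.000940). KLF15 passed the filter through the controls, and KLF12 mainly so. KLF8 averaged at most 0.506 FPKM in any group, KLF14 at most 0.457, KLF17 at most 0.106, KLF1 at most 0.0247 and KLF18, which is not on the list, at most 0.0163 FPKM.

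The SP factors bind the same GC boxes. In BxPC3 the median absolute log2 change of the 5 tested was 0.16, beside 0.67 over the members and 0.30 over all genes. SP6 (1.53-fold, limma adjusted p = 1.03e-05) and SP2 (1.13-fold, adjusted p = 0.0400) rose there, and SP1 (0.707 times the control mean, adjusted p = 0.000863) and SP3 (0.892 times, adjusted p = 0.00317) fell. SP4 did not pass (adjusted p = 0.0693). In PANC-1, 1 of 4 tested passed, SP2 at 9.44 FPKM with gemcitabine and 7.57 FPKM in control (adjusted p = 0.0285), while SP1, SP3 and SP4 did not (adjusted p = 0.0715, 0.423 and 0.659). The median absolute log2 change of the 4 tested in PANC-1 was 0.15, beside 0.20 over the members and 0.22 over all genes. Without gemcitabine replicate 1, SP1 was called lower there (log2 -0.14 ± 0.05 SE, adjusted p = 0.0333). The change then also differed between the lines for SP1 and SP3 (adjusted p = 0.0210 and 0.00566), beside 65.0% of all genes. With all libraries it did not (adjusted p = 0.0773 and 0.842). SP5 averaged at most 0.624 FPKM in any group, SP8 at most 0.119, SP7 at most 0.0415 and SP9 at most 0.0196 FPKM.

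Co-factors through which these proteins act were tested in both lines, all 8 listed. In BxPC3, 4 rose and 1 fell, where 37.3% of all genes rose and 36.1% fell. CTBP2, a partner of KLF3, was at 17.0 FPKM with gemcitabine and 13.0 FPKM in control (limma adjusted p = 3.15e-06). CTBP1 did not pass in BxPC3 (17.1 and 18.2 FPKM, adjusted p = 0.0731) or in PANC-1 (adjusted p = 0.762). The histone deacetylases HDAC2 and HDAC1 rose 1.16-fold and 1.13-fold in BxPC3 (adjusted p = 0.00193 and 0.00223). The gene that fell there was SIN3A, a partner of KLF9, KLF10, KLF11 and KLF13, at 5.86 FPKM with gemcitabine and 7.22 FPKM in control (adjusted p = 0.00527). In PANC-1 none rose and 3 fell, where 20.7% of all genes rose and 24.0% fell: SIN3A was at 11.6 FPKM with gemcitabine and 14.8 FPKM in control (adjusted p = 0.000911), CTBP2 at 10.2 and 12.9 FPKM (adjusted p = 0.00108) and HDAC1 at 59.8 and 67.1 FPKM (adjusted p = 0.0279). The change differed between the lines for CTBP2 (0.67, adjusted p = 2.99e-08) and HDAC1 (0.33, adjusted p = 0.000233), and that of SIN3A missed the threshold (0.07, adjusted p = 0.500). Without PANC-1 gemcitabine replicate 1, 1 co-factor was called higher and 5 lower in PANC-1, where 69.8% of all genes were called. The additions were HDAC2 (higher), SIN3B and CREBBP. The change differed between the lines for these 3 too, beside 65.0% of all genes. The list's median log2 change was 0.15 in BxPC3 and -0.14 in PANC-1, beside 0.00 and -0.02 over all genes.

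Regulators known to act upstream of the members (the MAP3K3, MAP2K5 and MAPK7 kinases with MEF2 factors for KLF2 and KLF4, TGF-beta signalling for KLF10 and KLF11, the glucocorticoid receptor NR3C1 for KLF9, and ubiquitin ligases such as WWP1 for KLF5) changed in both directions. In BxPC3, 6 of 16 tested rose and 4 fell, beside 37.3% and 36.1% of all genes. The TGF-beta receptor gene TGFBR2 was at 44.1 FPKM with gemcitabine and 31.5 FPKM in control (limma adjusted p = 1.36e-05), MAP3K3 at 4.19 and 2.58 FPKM (adjusted p = 3.46e-05), and MAP2K5 lower at 3.35 and 5.20 FPKM (adjusted p = 2.04e-05). In PANC-1, 3 of 17 rose and 3 fell, beside 20.7% and 24.0%. Without gemcitabine replicate 1 it was 4 and 7, where 69.8% of all genes were called. MEF2C was at 2.02 FPKM with gemcitabine and 4.47 FPKM in control (adjusted p = 4.60e-05), TGFBR2 at 42.9 and 60.1 FPKM (adjusted p = 7.04e-05), and FOXO3 higher at 19.8 and 14.6 FPKM (adjusted p = 0.000240). TGFBR2 moved in opposite directions in the lines, with a difference of 0.95 ± 0.07 SE in log2 (adjusted p = 1.26e-08). Without PANC-1 gemcitabine replicate 1, the difference between the lines was also called for 5 more of the list. These were MAP3K3, MAPK7, SRF, TGFB1 and WWP1, where 65.0% of all genes were called. The list's median log2 change was 0.05 in BxPC3 and -0.11 in PANC-1.

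Of 14 genes described elsewhere as targets of Kruppel-like factors, 12 were tested in BxPC3, where 6 rose and 4 fell (10 called, beside 73.4% of all genes), and 11 in PANC-1, where 7 rose and 3 fell (10 called, beside 44.8%). The PANC-1 counts were again 7 and 3 without gemcitabine replicate 1, where 69.8% of all genes were called. CDKN1A, the cell cycle inhibitor p21 that KLF4 and KLF6 are described to activate, was at 107 FPKM with gemcitabine and 53.6 FPKM in BxPC3 control (limma adjusted p = 5.09e-09). In PANC-1 it was at 35.4 FPKM with gemcitabine and 11.6 FPKM in control (adjusted p = 9.26e-07). CCNB1, the mitotic cyclin B1 that KLF4 is described to repress, rose in both lines, to 57.3 FPKM in BxPC3 gemcitabine against 19.0 FPKM in control and to 62.6 FPKM in PANC-1 gemcitabine against 21.1 FPKM in control (adjusted p = 7.48e-10 and 1.72e-07). BIRC5, the apoptosis inhibitor survivin, rose 3.18-fold in the first line and 3.20-fold in the second (adjusted p = 8.83e-09 and 1.72e-07).

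CCND1, the G1 cyclin described as a target of KLF5, rose 2.80-fold in PANC-1 (172 FPKM with gemcitabine and 61.3 FPKM in control, limma adjusted p = 1.72e-07) and did not pass in BxPC3 (70.0 and 71.7 FPKM, adjusted p = 0.434). Its change differed between the lines by -1.50 ± 0.06 SE in log2 (adjusted p = 1.19e-11). The list's median log2 change was 0.10 in BxPC3 and 1.246 in PANC-1, beside 0.00 and -0.02 over all genes. IVL in BxPC3 met the filter mainly through gemcitabine libraries and NOS3 in PANC-1 mainly through controls, so these calls carry the limit given for KLF9.

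**Figure D5:**
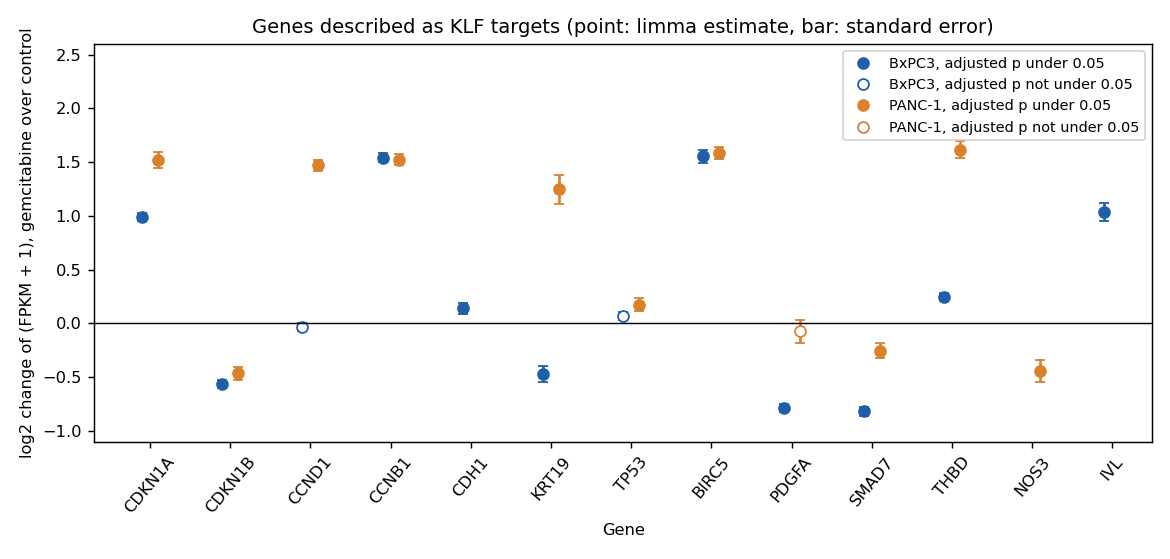
Log2 change of FPKM + 1, gemcitabine over control, of the tested genes described as targets, in BxPC3 (blue) and PANC-1 (orange); points are limma estimates, bars are standard errors and open symbols missed an adjusted p of 0.05. CCNB1 and BIRC5 lie above 1.5 in both lines, while CCND1 lies at -0.03 in BxPC3 and 1.47 in PANC-1.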

How the data were processed

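Per the file headers, the authors deposited 1 table for each line, holding an FPKM value for every gene and library beside the gene length in bases. The submitters' processing notes name CASAVA, HISAT2 and the mouse build mm10, but all 58735 deposited identifiers are human and match GENCODE 29 (GRCh38) in start and end. The sources used here give neither the counting program, nor its use of strand, nor the scaling of FPKM. In each library, FPKM times length came in steps of 1 read (at least 99.9% of values whole within 0.02 reads), from which reads and depth were taken. The listed reads were 0.963 to 1.05 times the total that the step implies. Floors cover counting error only. Libraries of a group differed beyond counting noise (chi-square per degree of freedom of 2.07 or more). This value was 55.6 to 66.2 between PANC-1 gemcitabine replicate 1 and its group. It was 14.3 to 16.9 between BxPC3 control replicate 2 and the other BxPC3 controls, and 12.8 between BxPC3 gemcitabine replicates 1 and 4.

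Groups came from the sample titles. Changes were tested per line with limma 3.58.1 (R 4.3.3; trend, robust) on log2(FPKM + 1). Genes needed 1 FPKM in at least 4 libraries, p-values were adjusted by Benjamini-Hochberg over all tested genes, and the threshold was 0.05. Folds are ratios of mean FPKM without the added 1, so the log2 changes of genes at low levels are smaller than their folds. The changes of the lines were compared by an interaction over 16 libraries. The rule for named genes took all members, every other KLF and SP gene, the 3 smallest p per list and line among called genes, and the nearest gene of each member called in both lines. IVL and NOS3 were named after their values were seen. CTBP1 and genes whose calls changed without PANC-1 gemcitabine replicate 1 were also named outside this rule. The members and lists were chosen with earlier results of these data known. Promoters are from RefSeq (GRCh38.p14). The tests were checked on simulated libraries with a fixed small spread, shared by all genes and not estimated from these data, and no GC effect. That check does not cover a deviating library such as PANC-1 gemcitabine replicate 1. Alternatives were a pseudocount of 0.1, omission of the filter, TPM or median-ratio scaling, limma with neither trend nor robust, a restriction to protein-coding genes, a replicate block, limma-voom on recovered reads, a size threshold and the omission of each library. Removal of each library's GC trend was added after seeing the data.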

Additional observations from a re-analysis of the deposited data

Results flagged for a closer look

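Of 40 sets of 4 libraries (10 members in 4 groups), 3 held a library far from the others, where chance gives about 1 in 20. KLF5 in BxPC3 control had its lowest value in replicate 2, with a gap to the next library of 0.977 of the group's range, and KLF3 had its lowest value in the same library (0.846). KLF13 in PANC-1 gemcitabine had its highest value in replicate 1 (0.894). The critical value for 4 libraries is 0.829.

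The change with gemcitabine differed between the lines, by the interaction test, for 8 members, beside 51.8% of all genes tested. In log2, BxPC3 minus PANC-1, the differences were -0.90 for KLF3, -1.08 for KLF4, -1.37 for KLF5, 1.04 for KLF6, 0.27 for KLF7, -0.73 for KLF9, -0.79 for KLF10 and -0.57 for KLF13. The direction for KLF9 follows from the groups through which it met the filter.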

How the results depend on the processing

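In BxPC3 all 10 members were called under each alternative of scaling, pseudocount, filter, gene set and model, and whichever library was left out, but 0 of 10 with a size threshold added. The size threshold was applied to the main fit only. There the log2 change of KLF6 was 0.84, against 0.98 with a pseudocount of 0.1 and 1.05 with limma-voom. With 1 library left out, 8543 to 9117 genes were called there, the most without BxPC3 control replicate 2. Without that library the log2 change was -0.94 for KLF5, -0.83 for KLF3 and -0.81 for KLF13. With all BxPC3 libraries it was -0.91, -0.81 and -0.75. In PANC-1 the members called ranged from 4 to 8 and the genes from 4641 to 8728, the highest of both without gemcitabine replicate 1. For the difference they ranged from 8 to 9 and from 6868 to 9194. Removing each library's GC trend called 8 members in PANC-1, with KLF2 (0.20, adjusted p = 0.0312) in place of KLF3 (0.06, adjusted p = 0.240) among the 8 called without gemcitabine replicate 1. Of 12508 genes tested there, that fit called 3698 higher and 4545 lower. The size threshold, an absolute log2 change of 1, left 1029 genes and 0 members in BxPC3, 534 genes and 1 member in PANC-1 (KLF4), and 1093 genes and 3 members for the difference (KLF4, KLF5 and KLF6). Leaving out PANC-1 gemcitabine replicate 1 turned the sign of 2 uncalled changes: with 1 library left out KLF2 ranged from -0.0616 to 0.237 and KLF10 from -0.0447 to 0.0270, and the cause was not tested. Over all members and comparisons, 263 of 270 changes under alternatives that kept every library stayed in direction and on their side of the threshold, as did 309 of 320 with 1 library left out.

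No pairing by replicate number was evident. The deviations of same-numbered libraries correlated at 0.18, -0.33, -0.09 and -0.10 in BxPC3 and -0.22, -0.38, 0.03 and 0.19 in PANC-1. Such correlations cannot show that same-numbered samples were handled apart, and the main tests used no pairing. With the replicate number as a block, 8553 genes were called in BxPC3, 4639 in PANC-1 and 6608 for the difference, and KLF11 in PANC-1 was the only member whose call changed (adjusted p = 0.0884). TPM scaling moved the median change of all genes by less than 0.1 in log2, and it moved the level of KLF4 in BxPC3 control to 13.2 and that of KLF6 in BxPC3 gemcitabine to 8.12. Depth limits the members near 1 FPKM, KLF9 with 88 to 262 reads per library and KLF2 with 88 to 176.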
